A study of Mus musculus with 18 samples.

Results

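The genes described here are the clustered histone genes, taken as every row of the authors' deposited tables whose symbol starts with Hist1, Hist2, Hist3 or Hist4. They numbered 56 of the 22476 gene symbols in the tables. The bone marrow table listed 53 of them among 14423 genes, the spleen table listed 43 among 21830, and 40 were in both. By histone type, the bone marrow table held 5 H1, 12 H2A, 14 H2B, 9 H3 and 13 H4 genes, and the spleen table held 5, 10, 11, 7 and 10.

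Clustered histone genes encode the replication-dependent histones: H2A, H2B, H3 and H4, which form the core of the nucleosome, and H1, the linker histone that binds where DNA enters and leaves it. Their messages are made in S phase and, unlike other messenger RNAs, normally end just after a conserved stem-loop instead of in a poly(A) tail. Stem-loop binding protein and a complex containing the U7 small nuclear RNA make that end, while some histone genes also have a poly(A) signal further downstream that can give a tailed message, as described in differentiating and non-dividing cells. Bone marrow holds many dividing blood cell precursors, and the spleen holds mostly mature lymphocytes.

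RNA was sequenced with QuantSeq, a method that primes on poly(A) and reads the 3' end of a transcript, so a tag count does not scale with transcript length and a message without a tail is not its usual template. All mice were of the C57BL/6 strain, per the labels. Bone marrow cells were compared between 4 libraries of Cgas-/- mice, which lack the cytosolic DNA sensor cGAS, and 4 libraries of dKO mice, genotype Trex1-/-;Sting1gt/gt, which lack the exonuclease TREX1 and carry the goldenticket allele of the cGAMP receptor gene. Spleen cells were compared between 5 libraries from recipients of Cgas-/- marrow and 5 from recipients of dKO marrow, where every recipient was a lethally irradiated dKO mouse and spleens were taken 12 weeks after the transplant. Host cells that survive irradiation are therefore dKO in both spleen groups. The labels give neither age nor sex and do not state whether each library came from a mouse of its own. The p-values therefore cover the spread between libraries alone, and part of that spread may be technical.

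Only the authors' results for each comparison were used, so no value per library is given and the depth of each library is unknown. Each log2 fold change sets Cgas-/- cells, or recipients of such marrow, over the dKO group, and its standard error follows the ± sign. The mean normalized count, called the level below, is the authors' mean over all libraries of a table. Where a level is given for a group, it was worked out from that mean and the fold change for groups of equal size. In bulk cells, fewer cells of a type and less RNA per cell cannot be told apart.

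The annotated ends of these genes are shown first because the method reads only this part of a message. GENCODE M21 annotates 70 clustered histone genes, 67 of them protein coding, in 4 clusters. The Hist1 cluster on chromosome 13 holds 56 genes, of which 43 were listed for bone marrow and 34 for spleen. The Hist2 cluster on chromosome 3 holds 10 (7 and 6 listed), the Hist3 cluster on chromosome 11 holds 3 (2 and 2 listed) and Hist4 on chromosome 6 is 1 gene, listed in both. A 16-base motif of the histone stem-loop was searched, which starts with GGC, ends with GCC and has a run of T between them. Transcripts of 42 of the 67 coding genes (62.7%) and of 6 of 21856 other coding genes (0.0275%) held it on the sense strand. Conversely, a poly(A) signal, AATAAA or ATTAAA, lay within the last 50 annotated bases in 17 of the 67 (25.4%) and in 17677 of the 21856 others (80.9%).

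Among the 56 listed genes, 20 had an annotated end within 100 bases after the stem-loop. Another 20 were annotated past it by more than that, and 16 had no match to the motif in their annotated transcripts. Several of the 16, such as Hist1h1b and Hist1h4k, are annotated only as far as the stop codon. The lack of a match there does not show that the gene lacks a stem-loop. Of the 40 with a match, 25 carried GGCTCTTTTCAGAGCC, a form found in H1, H2A, H2B and H3 genes. The next most frequent, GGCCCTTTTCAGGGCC in 7 genes, was found only in H4 genes. In the lines below the stem-loop is in capitals, 5′ to 3′, for the genes that the results turn on.
Hist1h4m: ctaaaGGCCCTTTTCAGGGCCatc
Hist1h4i: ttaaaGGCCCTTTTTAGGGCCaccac
Hist1h3d: ccaaaGGCTCTTTTCAGAGCCacccc
Hist1h2bb: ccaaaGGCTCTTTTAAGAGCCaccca
Hist2h2aa1: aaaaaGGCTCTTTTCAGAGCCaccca
Hist1h2ap: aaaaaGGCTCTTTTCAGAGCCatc
Hist1h1c: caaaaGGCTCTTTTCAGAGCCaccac
Hist3h2ba: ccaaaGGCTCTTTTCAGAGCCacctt

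The models of Hist1h4m and Hist1h2ap stop 3 bases after the stem-loop, Hist1h2bb 23 bases and Hist2h2aa1 35 bases after it. By contrast, the annotation runs on for 169 bases in Hist3h2ba, 330 in Hist1h4i, 752 in Hist1h3d and 840 in Hist1h1c. The last 30 annotated bases of 3 of these longer models hold a poly(A) signal, shown in capitals.
Hist1h1c: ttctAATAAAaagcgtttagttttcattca
Hist1h4i: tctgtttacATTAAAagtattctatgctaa
Hist3h2ba: attAATAAAtttggttcaattttggccaca
A different feature stood at the end of the short models of Hist1h2ap and Hist1h2ao, which carry a run of 12 A directly before the stem-loop. Their shared sequence, with that run in capitals, reads gAAAAAAAAAAAAggctcttttcagagcca. Runs of at least 10 A were found in transcripts of 4 of the 56 listed genes (7.14%) and of 4556 of 21856 other coding genes (20.8%). The other 2 listed genes with such a run, Hist1h2ac and Hist1h2be, have it away from the stem-loop. A match of this kind describes the annotation and not where tags were counted.

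Levels differed between histone types and with the annotated end. In bone marrow, the H2A gene Hist1h2ap had the highest level of any clustered histone gene in the authors' deposited table, 21700 normalized counts, which ranked 27 among the 14423 genes and made up 76.5% of the summed level of all 53. The linker histone gene Hist1h1e followed with 1604 and Hist1h1c with 832 in the authors' deposited table. The annotated end of Hist1h2ap is shared throughout with other genes, so its level, rank and share are uncertain as values of that copy. The highest level was 362 among H2B genes (Hist1h2bc), 253 among H3 genes (Hist1h3d) and 155 among H4 genes (Hist1h4i). In spleen, where levels were normalized separately, the order was another. There the highest were Hist3h2a, an H2A gene, with 583 normalized counts, Hist1h1c with 404, Hist2h2be with 144 and Hist1h2bc with 132, in the authors' deposited table. Hist1h2ap and Hist1h2ao are not among the rows of the spleen table.

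**Figure D1:**
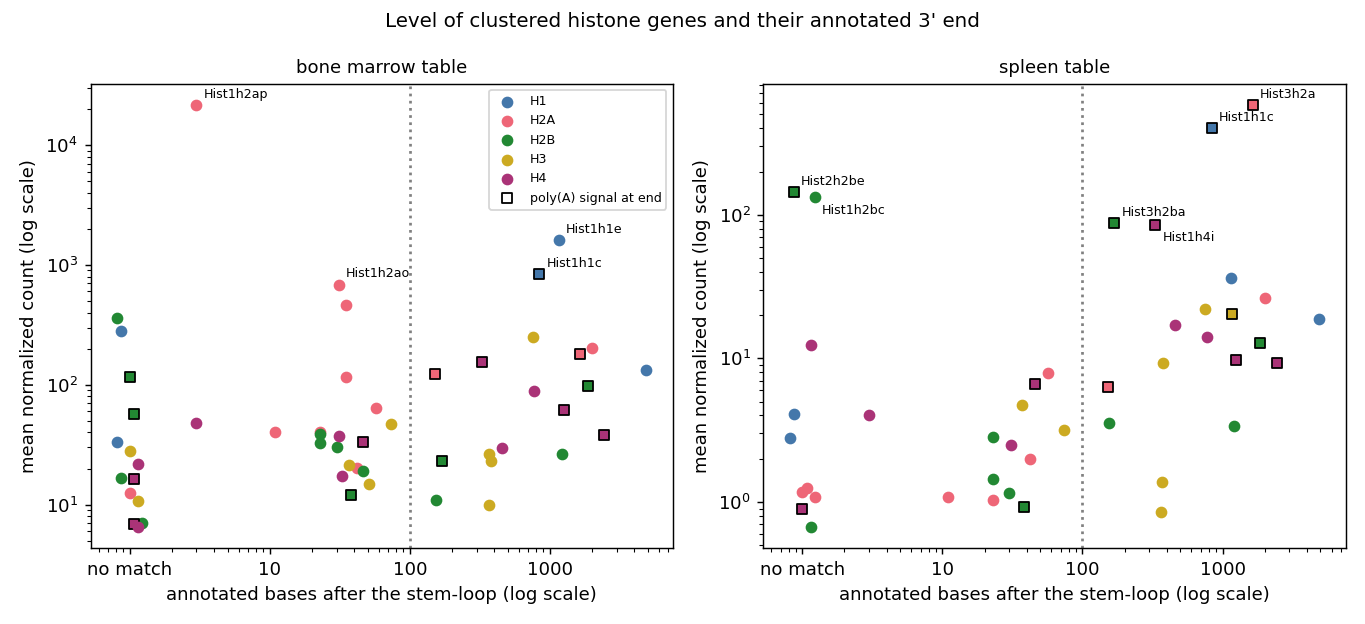
Mean normalized count (log scale) of each listed clustered histone gene against the annotated bases after its stem-loop (log scale), bone marrow left and spleen right, with genes without a match placed at the far left, spread sideways so that they can be seen. Colours are histone types, squares have a poly(A) signal near the annotated end, and the dotted line marks 100 bases. In spleen, no gene that ends within 100 bases of the stem-loop has a level above 7.89.

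In spleen, the 13 genes that end near the stem-loop had a median level of 2.51 and a highest of 7.89 in the authors' deposited table, and none reached 20. The 20 genes annotated past it had a median of 15.7, and 8 of them reached 20. The 10 without a match had a median of 2.02 and 2 of them reached 20, Hist2h2be and Hist1h2bc. Bone marrow showed the same order of medians with closer values in the authors' deposited table, at 38.0 for 20 genes ending near the stem-loop, 89.1 for 19 annotated past it and 19.3 for 14 without a match. The highest of the genes ending near the stem-loop there were the H2A genes Hist1h2ap, Hist1h2ao and Hist2h2aa1. Levels of at least 20 were listed for 40 of the 53 genes in bone marrow and for 10 of the 43 in spleen. Over all genes, 12045 of 14423 reached that level in bone marrow and 11118 of 21830 in spleen. The levels by annotated end describe an annotation that the authors may not have used, and no test was made of them. Sequence shared between copies, given below, was not separated from the annotated end.

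The tables did not list the same histone genes. Hist1h2ao, Hist1h2ap, Hist1h2bm, Hist1h2bn, Hist1h2br, Hist1h3b, Hist1h3g, Hist1h4a, Hist1h4f, Hist1h4k, Hist2h2aa1, Hist2h2aa2 and Hist2h3b were in the bone marrow table alone, 13 genes. Hist1h2an, Hist2h2ab and Hist2h3c1 were in the spleen table alone. Core histone genes of a type are closely similar in their coding parts, so tags could be split between copies or fall on the wrong copy. As a measure of this, the share of 50-base stretches in a gene's last 300 annotated bases that also occur in another gene was above 50% for 10 of the 13 genes listed for bone marrow alone and for 2 of the 3 listed for spleen alone, beside 15 of the 40 in both tables. Any other gene counted in this measure, including overlapping gene models. The end of Hist2h3c1 is shared only with Gm20634, and that of Hist1h1e only with Gm11398 and Hist1h2be, all of which overlap them. Levels also differed with this measure. In spleen, the median level was 1.44 for the 17 genes above 50% shared and 9.53 for the 26 others. In bone marrow it was 32.4 for 25 genes and 52.3 for 28. The part of shared sequence in the levels by annotated end was not tested. Over all genes, 646 symbols were listed for bone marrow alone and 8053 for spleen alone. The smallest level listed was 6.46 in bone marrow and 0.239 in spleen.

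The targeted genes were read first, as a check of the labels. Cgas was lower in Cgas-/- marrow at -1.13 ± 0.155 (adjusted p = 6.99e-10 by DESeq2) and in spleens with Cgas-/- marrow at -0.92 ± 0.217 (adjusted p = 0.0176 by DESeq2) in the authors' deposited tables. Trex1 was higher at 1.45 ± 0.178 in marrow (adjusted p = 7.93e-13 by DESeq2) and at 2.71 ± 0.199 in spleen (adjusted p = 8.48e-39 by DESeq2) in the authors' deposited tables. Both directions are those the labels give, although the labels do not say which parts of the genes were removed, and tags outside them may still be counted. As for the tissues, neutrophil markers reached a level of 406050 in the bone marrow table, and mature B cell markers reached 3476 in the spleen table.

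In bone marrow, core histone genes other than H2A tended to lie below 0 in Cgas-/- cells, and 1 gene, the H4 gene Hist1h4m, fell past the test. Of the 53 clustered histone genes, 39 had a log2 fold change below 0 in the authors' deposited table, against 50.5% of all genes in that table. Their median was -0.34, beside -0.00 for all genes. At a DESeq2 adjusted p under 0.05, 1 of 53 passed, where 0.534% of all genes did (0.361% lower). At an unadjusted DESeq2 p under 0.05, 13 histone genes were listed in the authors' deposited table, 10 lower and 3 higher, where 8.85% of all genes were, 4.65% lower and 4.19% higher. The histone genes were measured less precisely than most, with a median standard error of 0.364 beside 0.194 for all genes. A mean that weights each gene by its precision was closer to 0, at -0.15, and the 28 genes with at most 50% of their last 300 bases shared had a median of -0.24.

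**Figure D2:**
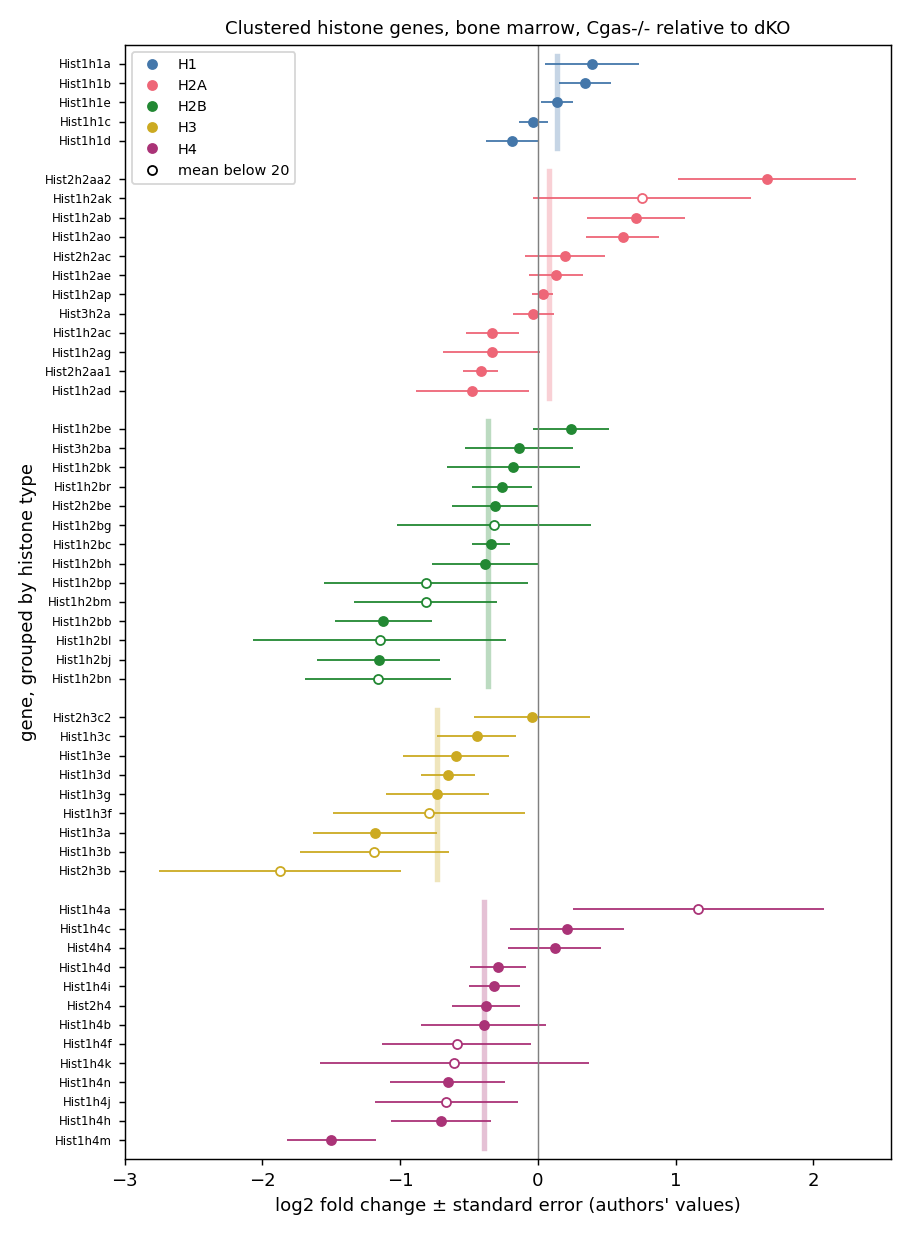
Log2 fold change of the 53 clustered histone genes in bone marrow, Cgas-/- relative to dKO, with 1 standard error on either side, from the authors' deposited table. Colours are histone types, pale bars mark each type's median, and open symbols have a level below 20. All 9 H3 genes and 13 of 14 H2B genes lie left of 0, while H1 and H2A genes lie on both sides.

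The types differed in their medians. H3 genes had all 9 members below 0 and a median of -0.73 in the authors' deposited table. H2B genes had 13 of 14 below 0 (median -0.36) and H4 genes 10 of 13 (median -0.39). H2A genes had 5 of 12 below 0 (median 0.08), and so did 2 of the 5 H1 genes (median 0.14). By cluster, 32 of 43 Hist1 genes (median -0.39) and 5 of 7 Hist2 genes (median -0.31) were below 0. No test was made of the differences between types, since genes of a type share sequence and libraries and are not replicates.

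H4 is the core histone that pairs with H3, and its gene copies encode the same or nearly the same protein. Hist1h4m, on the plus strand of chromosome 13 at 21811746 to 21812147 (GRCm38) in 1 exon of 402 bases, had a level of 47.9 in the authors' deposited table. It was 2.83-fold lower in Cgas-/- marrow, at -1.50 ± 0.325 (95% interval -2.14 to -0.87, adjusted p = 0.00224 by DESeq2, authors' deposited table), which corresponds to levels of 25.0 in Cgas-/- and 70.8 in dKO marrow. All 50-base stretches of its annotated end also occur in at least 1 of 10 other H4 genes, so this value is uncertain as a value of that copy. None of those copies passed. Hist1h4i, which had the highest level of an H4 gene and shares its annotated end with no other gene, was at -0.32 ± 0.186 (adjusted p = 0.674 by DESeq2) in the authors' deposited table. The remaining 11 H4 genes lay between -0.70 and 1.17 there, none with an unadjusted p under 0.05.

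H3, which carries many of the known regulatory tail modifications, gave the lowest median. Hist1h3d, annotated 752 bases past the stem-loop and with no stretch of its end shared, had a level of 253 in the authors' deposited table. It was at -0.65 ± 0.195 (adjusted p = 0.0982 by DESeq2, authors' deposited table), levels of 196 in Cgas-/- and 309 in dKO marrow, so it passed at 0.1, as 0.86% of all genes did, but not at 0.05. Hist1h3a was at -1.18 ± 0.452 (adjusted p = 0.302 by DESeq2) with a level of 21.4 in the authors' deposited table. Hist1h3b and Hist2h3b also had an unadjusted p under 0.05, at -1.19 ± 0.542 and -1.87 ± 0.879 in the authors' deposited table, both with levels below 20 and named after their values were seen. Their annotated ends are 54.2% and 88.8% shared, so these values are uncertain as values of those copies. Hist1h3e and Hist1h3f, whose ends match each other throughout, were at -0.59 ± 0.385 and -0.79 ± 0.699 in the authors' deposited table.

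H2B forms a dimer with H2A. Hist1h2bc, the H2B gene with the highest level (362), was at -0.34 ± 0.139 (adjusted p = 0.359 by DESeq2) in the authors' deposited table. Hist1h2bb, which had the smallest p of its type, was at -1.12 ± 0.352 (adjusted p = 0.138 by DESeq2), with levels of 24.3 in Cgas-/- and 52.9 in dKO marrow, in the authors' deposited table. Hist1h2bj was similar, at -1.16 ± 0.445 (adjusted p = 0.310 by DESeq2) in the authors' deposited table. The annotated ends of Hist1h2bb and Hist1h2bj are 60.2% and 67.7% shared, so both values are uncertain as values of those copies. Hist1h2be alone among the 14 was above 0, at 0.24 ± 0.276 in the authors' deposited table (adjusted p = 0.912 by DESeq2). No stretch of its own annotated end is shared, but it overlaps Hist1h1e on the same strand, so tags of these genes may be mixed.

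H2A genes lay on both sides of 0. Hist1h2ap, despite its high level, differed little between the genotypes, at 0.03 ± 0.0789 in the authors' deposited table (95% interval -0.12 to 0.19, adjusted p = 0.974 by DESeq2). Each stretch of its annotated end also occurs in another gene, so this value is uncertain as a value of that copy. Hist1h2ao, which shares the A run of Hist1h2ap, had a level of 684 and was at 0.62 ± 0.266 (adjusted p = 0.410 by DESeq2) in the authors' deposited table. Its annotated end is 88.8% shared, so the same limit holds for it. Hist1h2ab, with an end that is 70.1% shared and thus the same limit, was at 0.71 ± 0.358 (adjusted p = 0.549 by DESeq2) in the authors' deposited table. The neighbours Hist2h2aa1 and Hist2h2aa2, on opposite strands of chromosome 3 at 96245497 to 96246082 and 96239749 to 96240276, had values of opposite sign. Hist2h2aa1, with a level of 466, was at -0.42 ± 0.126 (adjusted p = 0.112 by DESeq2) and Hist2h2aa2, with a level of 116, at 1.66 ± 0.645 (adjusted p = 0.313 by DESeq2) in the authors' deposited table. Each stretch of either end occurs in another gene and both carry the same stem-loop site, so tags of these copies may not be separable. Every H2A gene listed for bone marrow overlaps an annotated gene on the other strand, and the counting strand is not given in the sources used here. Hist2h2aa1 also overlaps Gm20634 on its own strand.

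Linker histone genes were measured most precisely as a type. Hist1h1e was at 0.14 ± 0.118 (adjusted p = 0.857 by DESeq2) and Hist1h1c at -0.03 ± 0.103 (adjusted p = 0.985 by DESeq2) in the authors' deposited table. Hist1h1b had the smallest p of the type, at 0.34 ± 0.189 (adjusted p = 0.631 by DESeq2), with levels of 313 in Cgas-/- and 247 in dKO marrow, in the authors' deposited table. None of the 5 had an unadjusted p under 0.05. The end of Hist1h1e overlaps Hist1h2be on the same strand, so tags of these genes cannot be told apart there.

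By annotated end, similar shares of the bone marrow values were below 0. The medians differed, but no error was computed for them and no test was made. The 20 genes ending near the stem-loop had a median of -0.53 in the authors' deposited table, with 15 below 0. The 19 annotated past it had a median of -0.19 there, with 14 below 0. The 14 without a match had a median of -0.37, with 10 below 0. Of the 13 genes with an unadjusted DESeq2 p under 0.05, 9 ended near the stem-loop, 1 (Hist1h3d) was annotated past it and 3 had no match. The 14 genes with a poly(A) signal at their annotated end had a median of -0.20, with 10 below 0, and none of them had an unadjusted p under 0.05. The 39 without one, which include all 13, had a median of -0.39, with 29 below 0. The shared share of a gene's end moved with this: the 25 genes above 50% shared had a median of -0.61. Its part in the result was not tested.

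Upstream sequences are shown for the called gene and for the H2B gene with the smallest p, since histone types are known to have promoter elements of their own. They are the 250 bases before the annotated start, from RefSeq (GRCm38.p6), at chr13:21811496-21811745 and chr13:23746484-23746733, both on the plus strand, with matches in capitals.
Hist1h4m: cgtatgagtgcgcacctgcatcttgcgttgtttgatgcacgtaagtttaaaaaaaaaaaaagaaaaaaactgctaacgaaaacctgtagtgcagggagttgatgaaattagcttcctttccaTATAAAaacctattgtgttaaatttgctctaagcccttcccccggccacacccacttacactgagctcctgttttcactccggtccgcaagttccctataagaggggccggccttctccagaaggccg
Hist1h2bb: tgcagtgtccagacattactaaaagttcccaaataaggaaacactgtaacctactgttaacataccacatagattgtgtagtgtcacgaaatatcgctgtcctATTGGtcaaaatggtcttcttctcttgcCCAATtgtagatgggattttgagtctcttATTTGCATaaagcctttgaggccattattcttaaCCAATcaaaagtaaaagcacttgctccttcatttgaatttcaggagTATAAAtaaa
The first motif searched, on both strands like the others, was ATTTGCAT, the octamer known from H2B promoters. The others were TATAAA of the TATA box, the CCAAT box and AAACACA, an element known from H1 promoters, and none of the 4 contains another. The octamer was in 4 of 12 H2B and 5 of 14 H2A promoters and in none of the 5 H1, 8 H3 and 12 H4 promoters, against 1.60% of all 32851 promoters in the table. CCAAT was in all 31 promoters of H1, H2A and H2B genes but in 3 of 12 H4 promoters, against 33.8% of all promoters. TATAAA was in 24 of the 51 histone promoters (12.4% of all) and AAACACA in 4 of 5 H1 promoters (6.25% of all). Upstream sequences of some neighbouring H2A and H2B genes on opposite strands overlap, so a site could count for both types. The octamer of Hist1h2ae and Hist1h2bg is such a site. Matches were counted anywhere in the 250 bases, whatever their distance from the annotated start. A match therefore does not show a promoter element at its usual position, and this also holds for the matches in capitals above. The part of the 4 motifs in the fold changes was not tested.

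Genes that act with histones did not show a like shift in bone marrow. Replication-independent histone genes, whose messages are mostly polyadenylated, had 6 of 11 below 0 and a median of -0.03 in the authors' deposited table, and none had an unadjusted p under 0.05. Their smallest p was that of Cenpa, the centromeric H3, at 0.14 ± 0.0793 (adjusted p = 0.628 by DESeq2) in the authors' deposited table. Of 21 genes for histone mRNA 3' end processing and decay, 10 were below 0 (median 0.00). The Sm protein genes Snrpd3, at 0.31 ± 0.109 (adjusted p = 0.234 by DESeq2), and Snrpf, at 0.77 ± 0.318 (adjusted p = 0.374 by DESeq2), were the 2 with an unadjusted p under 0.05 in the authors' deposited table. Histone chaperone genes had 3 of 16 below 0 (median 0.07). The 2 with an unadjusted p under 0.05 were Hat1, the acetyltransferase of new H4, at -0.39 ± 0.136 (adjusted p = 0.214 by DESeq2) and the H3-H4 chaperone gene Asf1a, at 0.29 ± 0.126 (adjusted p = 0.434 by DESeq2) in the authors' deposited table.

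S phase and mitosis genes lay around 0 in bone marrow. DNA replication genes had 13 of 28 below 0 and a median of 0.03 in the authors' deposited table, with 3 higher and 1 lower at an unadjusted p under 0.05. The helicase subunit gene Mcm7 was at 0.24 ± 0.0770 (adjusted p = 0.149 by DESeq2) in the authors' deposited table. Mitosis genes had 13 of 20 below 0 and a median of -0.02, and the kinase gene Cdk1, the 1 with an unadjusted p under 0.05, was at -0.20 ± 0.0941 (adjusted p = 0.511 by DESeq2) in the authors' deposited table. No member of these 5 lists passed in either tissue.

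**Figure D3:**
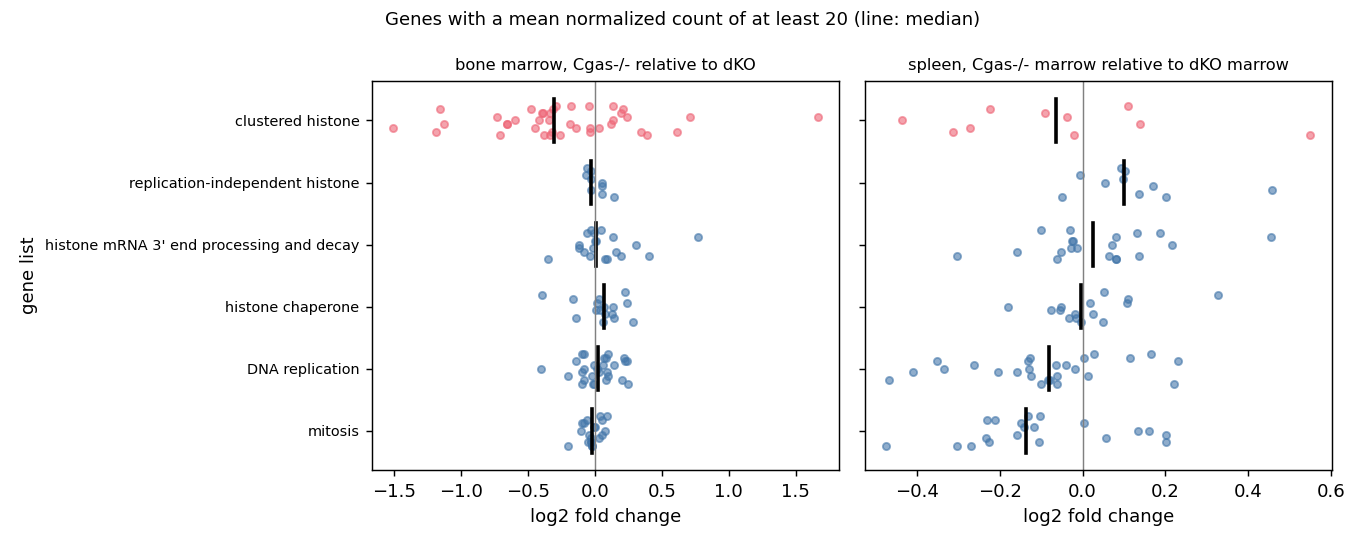
Log2 fold changes (horizontal axis) of clustered histone genes and of 5 related gene lists (vertical axis, spread for visibility) in bone marrow and spleen, for genes with a level of at least 20, from the authors' deposited tables, with different horizontal scales. Points are genes and black lines medians. In bone marrow the histone median is -0.30 and the other medians lie near 0.

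Among blood cell markers in the same bone marrow libraries, 5 genes passed the test. Erythroid genes had 11 of 11 listed members above 0 (median 0.64), 1 of them past a DESeq2 adjusted p of 0.05, Hbb-bt, in the authors' deposited table. B cell progenitor genes had 8 of 8 above 0 (median 0.51), with Dntt past the test, and stem and progenitor genes 4 of 4 (median 0.29), with Flt3 past it, in the authors' deposited table. Monocyte genes had 4 of 4 below 0 (median -0.35), with Ly6c2 and Csf1r past the test, and neutrophil genes 6 of 6 (median -0.15) in the authors' deposited table. Promyelocyte genes, which mark dividing granulocyte precursors, had 5 of 5 below 0 with a median of -0.06, and T cell and mature B cell genes had medians of -0.06 and -0.02 in the authors' deposited table. The part of cell composition in the histone values was not tested.

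In spleen, no clustered histone gene passed the test, and most were too low to measure well. Of the 43 listed, 27 were below 0 in the authors' deposited table, against 55% of all genes there, with a median of -0.09 beside -0.03 for all genes. DESeq2 called none of them at an adjusted p of 0.05, where 0.133% of all genes were called. At an unadjusted DESeq2 p under 0.05 there was 1, Hist3h2ba, which was higher, where 3.02% of all genes were listed, 1.17% higher. The median standard error was 0.651 for histone genes and 0.341 for all genes in the authors' deposited table. After subtraction of the median of all genes, 24 of 43 were below 0, and Hist1h1c, Hist1h2ak and Hist2h4 turned to the other side.

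**Figure D4:**
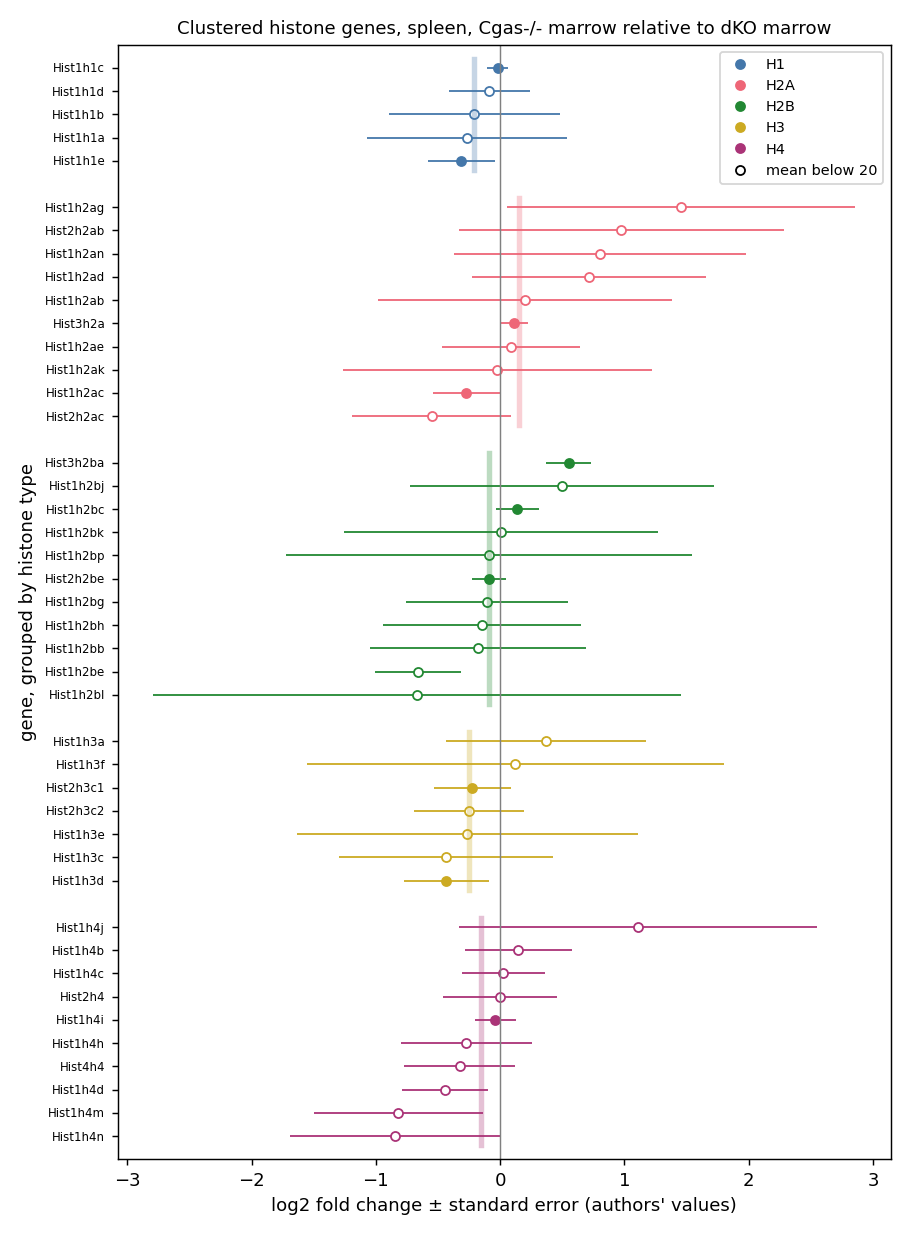
Log2 fold change of the 43 clustered histone genes in spleen, recipients of Cgas-/- marrow relative to recipients of dKO marrow, with 1 standard error on either side, from the authors' deposited table. Colours are histone types, pale bars mark each type's median, and open symbols have a level below 20. The 10 filled symbols have short bars and, apart from Hist3h2ba, lie between -0.43 and 0.14.

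Hist3h2ba, an H2B gene outside the main cluster at 58948920 to 58949533 on chromosome 11, had a level of 87.6 in the authors' deposited table. It was at 0.55 ± 0.180 (95% interval 0.20 to 0.90, adjusted p = 0.811 by DESeq2, authors' deposited table), with levels of 104 in recipients of Cgas-/- marrow and 71.1 in recipients of dKO marrow. Its neighbour Hist3h2a, which had the highest level of any clustered histone gene in spleen, was at 0.11 ± 0.115 in the authors' deposited table and did not pass. Hist3h2a overlaps Trim17 on the same strand, so tags of these genes may be mixed. The best measured of all was Hist1h1c, at -0.02 ± 0.0850 with a 95% interval from -0.19 to 0.15 in the authors' deposited table.

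By type, most spleen members had a standard error larger than the size of their type's median. No error was computed for the medians. H1 genes had all 5 below 0 (median -0.21), or 4 of 5 after subtraction of the median of all genes, and Hist1h1e had the smallest p among them at -0.31 ± 0.272 in the authors' deposited table. H2A genes had 3 of 10 below 0 (median 0.16). Among them Hist1h2ac was at -0.27 ± 0.270, while Hist1h2ag, with a level of 1.03, was at 1.46 ± 1.40 in the authors' deposited table. H2B genes had 7 of 11 below 0 (median -0.09), with Hist2h2be at -0.09 ± 0.135 and Hist1h2bc at 0.14 ± 0.172 in the authors' deposited table. H3 genes had 5 of 7 below 0 (median -0.25), with Hist1h3d at -0.43 ± 0.341 in the authors' deposited table. H4 genes had 7 of 10 below 0 (median -0.16). There Hist1h4i was at -0.04 ± 0.162 and Hist1h4d at -0.44 ± 0.343 in the authors' deposited table. Hist1h4m, called in bone marrow, had a level of 4.01 in spleen and was at -0.82 ± 0.677 in the authors' deposited table, with an interval of -2.15 to 0.51 that includes both 0 and its bone marrow value.

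The related lists in spleen also held no call by DESeq2, and Prim2, Tpx2 and Snrpf were their only members with an unadjusted p under 0.05. Replication-independent histone genes had 3 of 11 below 0 (median 0.10), with H3f3b, a gene for the replacement histone H3.3, at 0.20 ± 0.107 in the authors' deposited table. DNA replication genes had 21 of 28 below 0 (median -0.09), with the primase subunit gene Prim2 at -0.47 ± 0.198 in the authors' deposited table. Mitosis genes had 14 of 20 below 0 (median -0.14), with Tpx2 at -0.47 ± 0.236 in the authors' deposited table. Processing and decay genes and chaperone genes both had medians of -0.01, and Snrpf was at 0.45 ± 0.183 in the authors' deposited table. Erythroid genes had 11 of 11 below 0 (median -0.69) and promyelocyte genes 5 of 5 (median -0.70) in the authors' deposited table, none past the test, and their part in the histone values was not tested.

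The comparisons share no library, so the change in spleen was set against the change in bone marrow. Of the 40 clustered histone genes in both tables, none differed between tissues at an adjusted p of 0.05 (spleen minus bone marrow over the root of the summed squared standard errors, normal p, Benjamini-Hochberg adjustment over 13777 genes), where 0.0581% of all genes did. At an unadjusted p under 0.05 there were 2, where 4.8% of all genes were. They were the H2B genes Hist1h2bc, with a difference of 0.48 ± 0.221 (adjusted p = 0.990), and Hist1h2be, with -0.91 ± 0.442 (adjusted p = 0.990). Tags of Hist1h2be and Hist1h1e may be mixed, as given above. The tissues differ in more than the genotype of the cells, since spleen recipients were all dKO and had been irradiated.

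**Figure D5:**
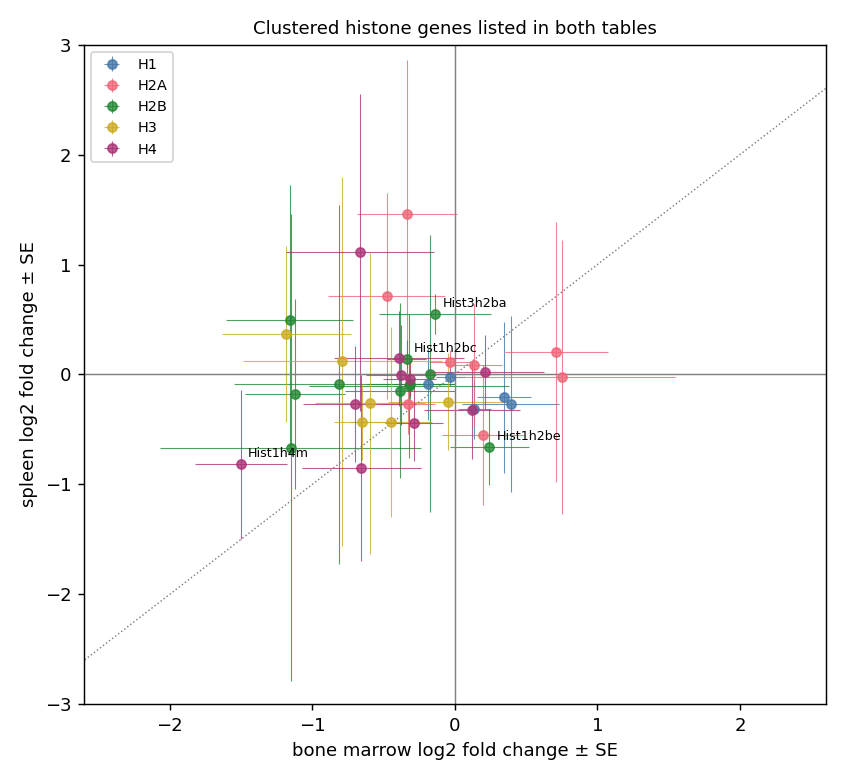
Log2 fold change in spleen (vertical axis) against that in bone marrow (horizontal axis) for the 40 clustered histone genes in both tables, with 1 standard error in each direction, from the authors' deposited tables. Colours are histone types and the dotted line marks equal values. Points lie on both sides of the dotted line, and Hist1h4m lies farthest left at -1.50.

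In sign, 19 genes were below 0 in both tissues, 3 above 0 in both, 11 below 0 in bone marrow alone and 7 below 0 in spleen alone, in the authors' deposited tables. The median difference was 0.22 for the histone genes and -0.01 for all genes, with a median standard error of 0.706. Hist1h3a had a larger difference than the H2B genes above, at 1.55 ± 0.920 (adjusted p = 0.999), from 0.37 ± 0.801 in spleen and -1.18 ± 0.452 in bone marrow in the authors' deposited tables. Hist3h2ba differed by 0.69 ± 0.434, Hist1h1e by -0.45 ± 0.297 and Hist2h2ac by -0.75 ± 0.700, each with an adjusted p of 0.999.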

How the data were processed

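Per the labels' protocols, cell suspensions were extracted with the SPLIT kit, and QuantSeq FWD libraries followed. Tools named by the submitters' processing notes are STAR 2.6.1, bcl2fastq 1.8.4, DESeq2 and Partek, with the build mm10. Not given in the sources used here are the counting tool, annotation, strand and gene filter. The tables hold the authors' DESeq2 results for 18 libraries, 8 of bone marrow and 10 of spleen. Per the file headers, the level is a signal, the authors' mean normalized count. The log2 fold change and the standard error beside it come from the authors' fit, per the file headers. The Wald score, the ranking score, the p-value and the Benjamini-Hochberg adjusted p-value were used or checked as deposited. Recomputed Wald scores, p-values and adjusted p-values differed from the deposited ones in 0 genes at a tolerance of 1e-06.

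Calls are the authors' adjusted p-values under 0.05. The 95% intervals are normal and use the deposited standard errors. The spleen table's Mb21d1 was read as Cgas. Symbols were matched between tables and to the GENCODE M21 annotation of GRCm38, which is mm10, and 51 of 56 histone genes to RefSeq promoters. The genes named are the targeted genes, calls, for each type and table the highest level and smallest p, the 3 largest changes each way at a level of at least 20, the 3 differences between tissues with the largest z each way, and the 2 smallest p-values of each list. The members, the 13 lists and this rule were chosen with earlier results of these data known. The calculation of the difference between tissues was run on simulated fold changes with normal errors of the deposited size. Changes were planted only in genes with a level of at least 20 in both tables. In spleen, 9 of the 40 histone genes in both tables reach that level. The run therefore checks the calculation and not its power for histone genes. Calculations used Python 3.11.15, pandas 2.3.3, numpy 2.4.6 and scipy 1.17.1, and figures matplotlib 3.10.9.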

Additional observations from a re-analysis of the deposited data

How the results depend on the processing

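The number of histone calls depended on the threshold. In bone marrow 1 gene passed a DESeq2 adjusted p of 0.05, 2 passed at 0.1 and 13 had an unadjusted p under 0.05, in the authors' deposited table. In spleen the unadjusted threshold gave 1 in place of 0, and between tissues 2 in place of 0. At an adjusted p of 0.05, adjusting over genes with a level of at least 20, or keeping only genes in both tables, gave the same counts of 1 in bone marrow and 0 in spleen. The bone marrow median of -0.34 ranged from -0.15 (a mean weighted by precision) to -0.33 over the alternatives, with -0.24 for genes with at most 50% of the end shared, an alternative chosen after seeing the data. The spleen median of -0.09 ranged from -0.02 to -0.09. For single named genes, 155 alternatives kept the direction and side of the threshold, and 1 did not: Hist1h1c in spleen turned from -0.02 to 0.0071 when centred on all genes. No paired analysis was possible because the tables hold no value per library, and leaving out each replicate could not be run for the same reason. The depth of each library is unknown. In spleen 33 of 43 histone genes had a level below 20, and in bone marrow 13 of 53. Over all genes, 11118 of 21830 in spleen and 12045 of 14423 in bone marrow reached 20.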
